A study of Mus musculus with 2 samples.

Results

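The type I interferon-stimulated antiviral genes are a module of 44 genes, chosen by name, whose transcripts accumulate when a cell senses a microbe and responds to type I interferon. On the arrays, 40 of the 44 genes had at least 1 probe set that the platform annotation assigns to them alone, and these 40 genes are covered by 70 of the 45101 probe sets, of which 34945 name a single gene. The other 4 genes have no value here: every probe set that names Isg15 or Ifi205 names a related gene as well, and Oas1g and Ifi44 are named by none. The members were compared between dendritic cells of wild-type mice and of mice lacking the microRNA miR-155, which asks how this module is expressed in activated dendritic cells without the microRNA.

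The wild-type cells came from C57BL/6J mice and the miR155-/- cells from knockout mice that the labels give the same strain. Both marrow cultures were kept for 7 days with 20 ng/ml recombinant GM-CSF, a growth factor that yields dendritic cells, and both were then moved to medium with 10 ng/ml lipopolysaccharide (LPS), a bacterial cell wall component sensed by TLR4. Each genotype is 1 Affymetrix array, labelled from 6 ug of total RNA, and no untreated cells were profiled, so how far LPS itself raised the module is not measured. The sources used here do not give the number of mice behind each array, the length of the LPS exposure or how the knockout allele was made. The growth protocol names macrophages where the other labels name dendritic cells.

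LPS reaches these genes in 2 steps. TLR4, through the adaptor TRIF and the kinase TBK1, activates IRF3, which turns on interferon beta and a few of the antiviral genes directly. Secreted interferon then acts back on the cells through its receptor IFNAR, the kinases JAK1 and TYK2 and a transcription factor complex that includes STAT2 and IRF9 and binds the interferon-stimulated response element in the promoters of the module. miR-155 is itself induced by the same signals and represses transcripts that pair with its seed. The mature strand, shown because it is what the knockout cells lack, has its seed (bases 2 to 8) in capitals:
mmu-miR-155-5p: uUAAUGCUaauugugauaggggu

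The promoters of the module were read from RefSeq (build GRCm38.p6, 250 bases before to 50 bases after each gene's start). Promoters were held for 32 of the 44 members. The core of the response element was searched on both strands as GAAA, any 2 bases and GAAA again, overlapping matches included. Of the 32 members, 14 (43.8%) had the core in at least 1 of their windows, against 3.99% of all 27025 genes with a window and 164 of the 3279 measured genes of the brightest tercile that had one. Counted by window, 15 of 41 member windows (36.6%) held it, against 3.44% of all 32851 windows. The core lay in the windows of Isg15, Ifi205 and Oas1g as well, for which no signal can be given. A match is only a match of letters, and a window without one says nothing about the factor.

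The whole window of Ifit1 (chr19:34640639-34640938, plus strand) is shown because this gene differed most among the members whose window holds the core. Capitals mark the matches, which here lie on the opposite strand and so read TTTC, 2 bases and TTTC:
Ifit1: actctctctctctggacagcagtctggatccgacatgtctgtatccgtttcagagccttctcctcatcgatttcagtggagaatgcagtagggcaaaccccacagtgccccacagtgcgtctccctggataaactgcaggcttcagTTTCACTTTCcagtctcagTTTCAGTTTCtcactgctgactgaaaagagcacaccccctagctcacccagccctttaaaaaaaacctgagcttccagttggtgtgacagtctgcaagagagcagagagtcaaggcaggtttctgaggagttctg

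The stretches around the core in the other 10 measured members that hold it are given so that the matches can be set side by side, with the core in capitals and each read along its gene. They run from the member with the lowest difference between genotypes to the one with the highest, and Trim30a has the core in both of its windows:
Ddx58 (chr4:40239802-40239835, minus strand): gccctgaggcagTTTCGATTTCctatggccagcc
Ifih1 (chr2:62646206-62646235, minus strand): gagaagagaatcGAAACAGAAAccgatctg
Trim21 (chr7:102565442-102565481, minus strand): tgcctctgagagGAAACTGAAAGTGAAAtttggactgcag
Rsad2 (chr12:26456551-26456584, minus strand): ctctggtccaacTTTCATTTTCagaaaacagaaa
Eif2ak2 (chr17:78882533-78882566, minus strand): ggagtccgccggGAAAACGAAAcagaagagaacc
Oas3 (chr5:120777713-120777746, minus strand): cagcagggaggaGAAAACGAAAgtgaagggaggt
Ifit3 (chr19:34583361-34583428, plus strand): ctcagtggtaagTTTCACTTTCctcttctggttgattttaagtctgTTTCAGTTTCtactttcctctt
Bst2 (chr8:71537575-71537614, minus strand): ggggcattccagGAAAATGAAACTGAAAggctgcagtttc
Oas1a (chr5:120907518-120907557, minus strand): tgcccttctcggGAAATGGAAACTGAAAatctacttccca
Trim30a, window nearer the chromosome's start (chr7:104446102-104446135, minus strand): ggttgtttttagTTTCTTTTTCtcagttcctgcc
Trim30a, other window (chr7:104465208-104465241, minus strand): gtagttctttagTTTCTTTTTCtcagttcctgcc

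Values below are signal intensities after quantile normalization, which gives both arrays the same distribution, and a difference is the log2 signal of the knockout minus that of wild type. A gene was taken as measured when its brightest probe set, which stands for it, exceeded a floor of 67.6 (the median of all normalized values) in either genotype. The deposited arrays had no common scale: the median intensity was 58.4 for wild type and 78.3 for knockout. Mir155hg, the transcript from which miR-155 is cut, was at 1136 in the wild type and at 159 in the knockout, 7.13-fold lower. With 1 array per genotype there is no replicate spread and no test, so every difference describes these 2 arrays. The only error that can be measured is the SD between probe sets of the same gene, 0.29 on the log2 scale over 11653 probe sets of 4410 genes, and 0.22 over 49 probe sets of the 19 members that have more than 1.

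Most member probe sets gave high signals in both cultures, although signals of different probe sets do not rank transcript amounts. The median member had a mean signal of 2806 against 276.3 for the 11878 measured genes. Of the 40 members, 38 lay in the brightest tercile of measured genes, which begins at 505, and 30 in the brightest decile, which begins at 1737. No member lay in the dimmest tercile, and all 70 member probe sets were above the floor on both arrays, so that no member entered through 1 array alone. The 2 members in the middle tercile were Mx2 and Pml.

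Between genotypes the module was slightly lower in knockout cells after quantile normalization and loess, a direction that turned on the deposited values and with scaling on hybridisation controls. Of 40 members, 34 (85%) were lower and 6 higher, against 48.5% lower among all measured genes and 47.8% in the brightest tercile. The median difference was -0.13, or 1.09-fold lower, against 0.01 for all measured genes. At least 1.2-fold lower were 7 members (17.5%), close to the 18.1% of all measured genes and above the 12% of the brightest tercile. At least 1.2-fold higher was 1 member (2.5%), against 19.4% of all measured genes and 13.5% of the brightest tercile. None differed by 1.5-fold in either direction, where 4.1% of measured genes were at least that much lower and 4.57% higher, and none by 2-fold (0.615% lower and 0.572% higher). In the brightest tercile, which holds 38 of the members, such changes were rarer. There 1.67% were lower and 1.97% higher by 1.5-fold, and 0.253% and 0.126% by 2-fold. The middle members, between the quartiles, lay from -0.23 to -0.04. The SD over members was 0.15, smaller than the 0.34 of all measured genes, the 0.26 of the brightest tercile and the 0.22 between probe sets of a member, so the order of most members cannot be told from the disagreement of their probe sets.

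**Figure D1:**
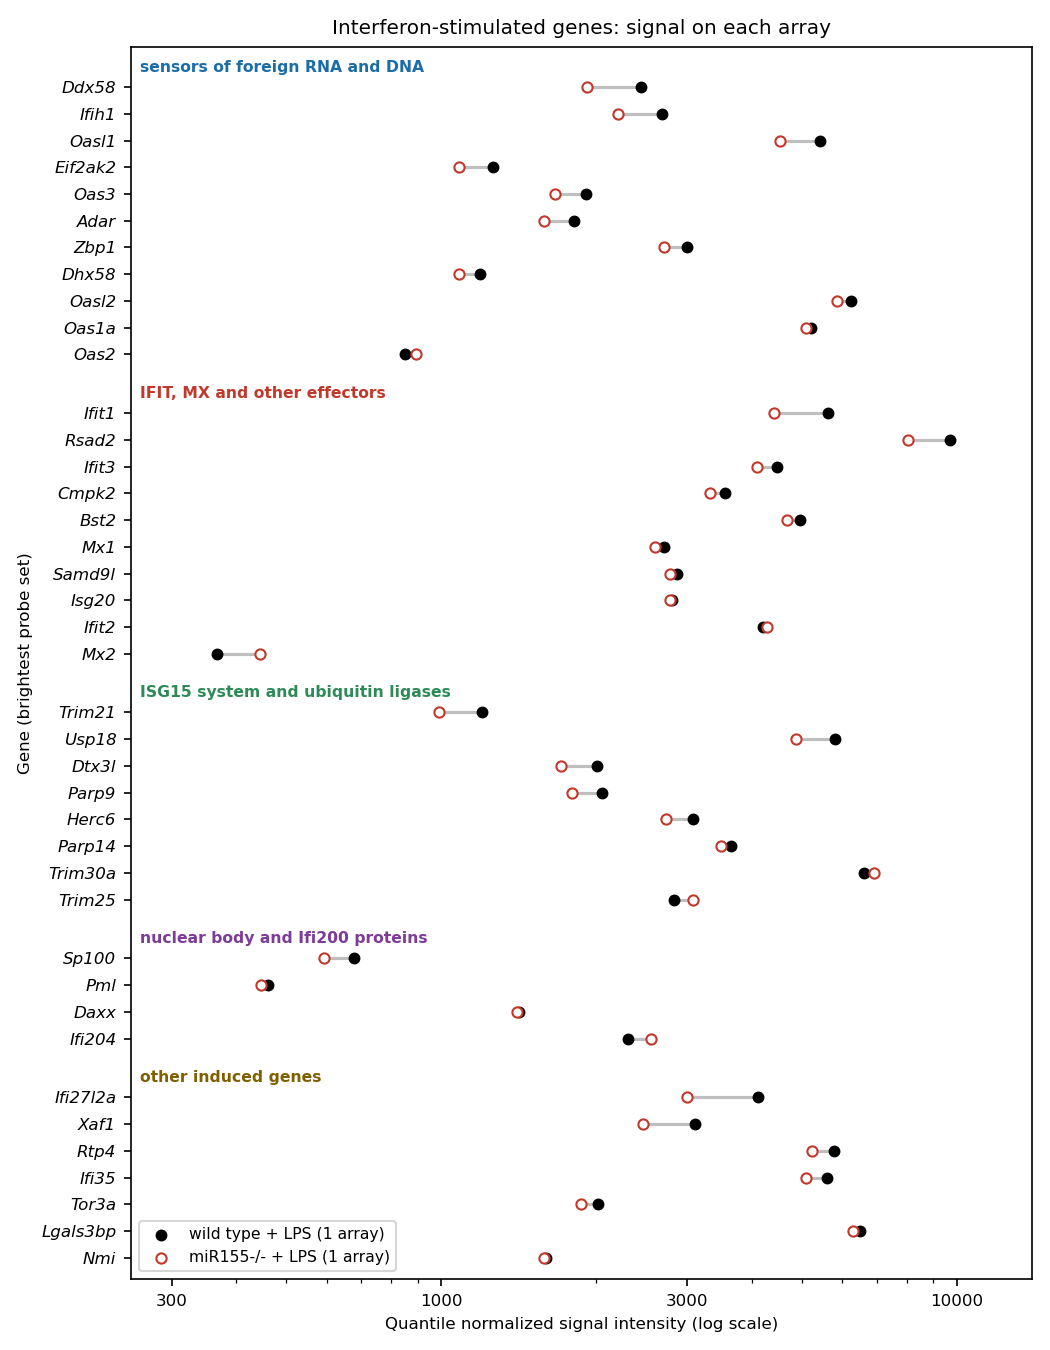
Quantile normalized signal (log axis) of the 40 measured interferon-stimulated genes, grouped by role, on the wild-type array (black points) and the miR155-/- array (open red points), 1 array each with no error bars. After this normalization the open point lies left of the black point for 34 genes (for none on the deposited values), and the longest line toward lower signal is that of Ifi27l2a, from 4111 to 2999.

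The direction of this shift depends on how the arrays are scaled. With loess, the split was again 34 lower and 6 higher (all measured genes, 48.7% lower). With centring on the median, 21 of 40 members were lower (against 32.3% of all measured genes), with scaling on 18 hybridisation controls 9 of 40 (against 23.3%), and on the deposited values 0 of 40 (against 7.14%). In the brightest tercile these shares were 21.4%, 12.3% and 1.79%, in the same order. At least 1.2-fold lower and higher were 2 and 2 members with centring, 0 and 4 with hybridisation controls and 0 and 35 on the deposited values. On the deposited values the brightest probe set of every member was therefore brighter in the knockout. The folds ran from 1.07-fold for Ifi27l2a to 1.82-fold for Mx2, with a median of 1.34-fold. A dimmer probe set of Rsad2, Cmpk2, Dhx58, Eif2ak2, Herc6, Trim21 and Xaf1 was lower in the knockout on the deposited values as well. The position of the module against the other genes moved little between scalings. Centring, the hybridisation controls and the deposited values differ only by 1 constant per array, so among these the position could hardly move. The median of the module lay 0.12 to 0.14 under that of all measured genes in all 5 scalings and 0.13 to 0.18 under that of the brightest tercile. Under the median of all measured genes lay 34 of 40 members with quantile normalization, loess, centring and the hybridisation controls, and 31 of 40 on the deposited values. The module was thus lower relative to the bulk of genes, and not in deposited signal.

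**Figure D2:**
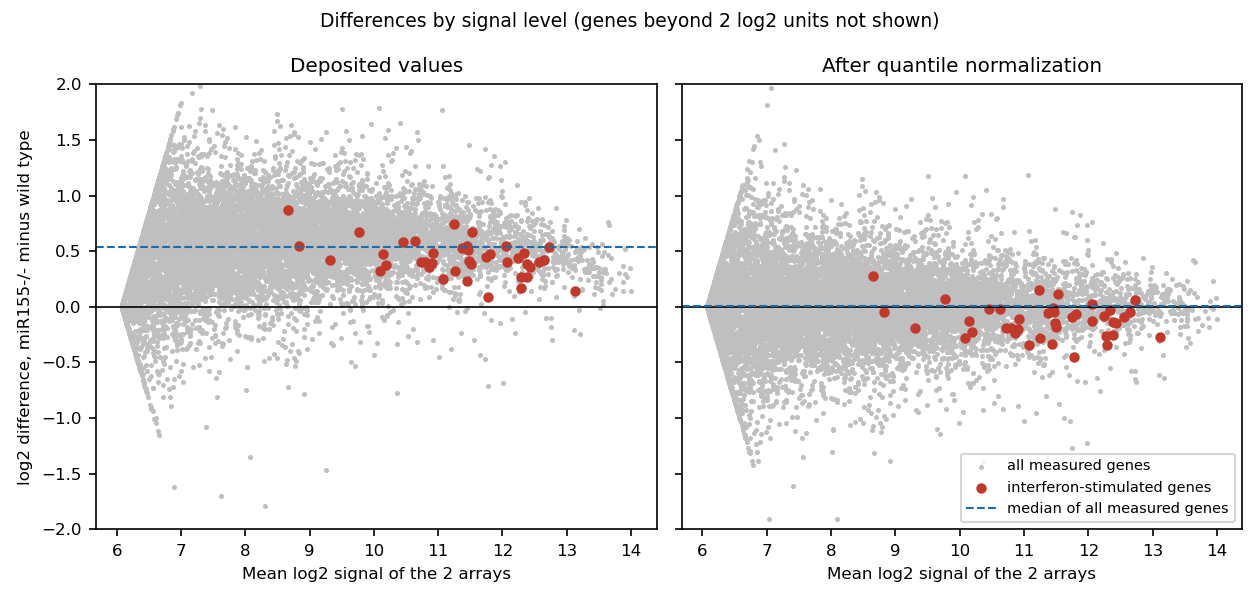
Difference between genotypes (log2, knockout minus wild type) against the mean log2 signal of the 2 arrays, for deposited values (left) and after quantile normalization (right), with every measured gene in grey, the 40 interferon-stimulated genes in red and the median of all measured genes as a dashed line. The red points lie above 0 on the left and mostly below 0 on the right, and in both panels most lie below the dashed line (31 and 34 of 40).

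The role groups below are described after quantile normalization, with each pair of values given as wild type, then knockout. On the deposited values, a member called lower here was still higher in the knockout at its brightest probe set, though not at every dimmer one. Sensors of foreign nucleic acid were lower in 10 of 11 measured cases, and their median difference was -0.19. Ddx58 encodes RIG-I, which detects RNA with a 5' triphosphate. It went from 2442 to 1921, 1.27-fold lower, but its 2 dimmer probe sets were higher in the knockout (0.35 and 0.21). Ifih1 encodes MDA5, the sensor of long double-stranded RNA, and had signals of 2677 and 2205, 1.21-fold lower. Dhx58 encodes LGP2, the helicase that tunes both, and went from 1187 to 1084 at its brightest probe set (-0.13), with its other 2 probe sets at -0.41 and -0.66. The probe sets of Ddx58 thus disagreed in sign, those of Dhx58 agreed, and Ifih1 has only 1.

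The kinase gene Eif2ak2 encodes PKR, which halts translation on double-stranded RNA. Its signals were 1263 and 1081 (-0.22), and all 3 of its probe sets were lower. Zbp1, a sensor of Z-form nucleic acid that can trigger necroptosis, was at 2997 and 2704 (-0.15), with 2 of 2 probe sets lower. Adar, which edits double-stranded RNA and so hides self RNA from the sensors, was at 1808 and 1586 (-0.19), with 3 of 3 lower. Probe sets of these 3 genes all pointed the same way.

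The oligoadenylate synthetase family, whose active members make the messenger that switches on RNase L, did not shift as a block. Oas3 went from 1906 to 1665 (-0.20) and Oasl1, a family member without synthetase activity, from 5441 to 4549 (-0.26). Oasl2 went from 6248 to 5852 (-0.09) and Oas1a from 5211 to 5108 (-0.03). Oas2 was 851 and 893 (0.07), the only sensor that was higher in the knockout. Each of these 5 genes rests on 1 probe set, and mouse Oas1 genes are near-identical copies, so the Oas1a value may include signal of its neighbours.

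Among effectors that act on virus replication, 8 of 10 were lower, with a median of -0.07. Ifit1, whose protein binds viral RNA that lacks cap methylation, went from 5637 to 4430, 1.27-fold lower. The neighbouring family members differed less: Ifit3 had signals of 4472 and 4098 (-0.13), and Ifit2 had 4218 and 4286 (0.02). Each IFIT gene rests on 1 probe set. The gap between Ifit2 and Ifit3 lies within the probe set SD. That from Ifit1 to Ifit2 is larger, but the SD describes single probe sets and a gap between genes carries the error of each. The order of the IFIT genes is therefore not settled.

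Rsad2, which encodes viperin, a radical enzyme that makes a chain-terminating nucleotide, was lower at all 3 of its probe sets. The brightest had signals of 9684 and 8034, 1.21-fold lower, the next 8264 and 6179, and the dimmest 4632 and 2605, 1.78-fold lower. Cmpk2, a mitochondrial nucleotide kinase encoded beside Rsad2, was at 3554 and 3329 (-0.09) at its brightest probe set and at 434 and 253 (-0.78) at the other. For both genes the dimmer probe set showed the larger difference.

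The Mx GTPases, which block incoming viral particles, differed from each other. Mx1 had signals of 2700 and 2598 (-0.06). Mx2 had signals of 367.4 and 445.4, and was at 1.21-fold the only member more than 1.2-fold higher in the knockout. Common laboratory strains, C57BL/6 among them, carry defective Mx alleles, so these transcripts say nothing about working protein. Bst2 encodes tetherin, which holds budding virus at the cell surface, and was at 4969 and 4686 (-0.08). Isg20, an RNA exonuclease, was at 2799 and 2781 (-0.01), and Samd9l at 2867 and 2777 (-0.05), differences far inside the probe set SD.

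In the system that attaches the ubiquitin-like ISG15 to proteins, and among the ubiquitin ligases, 6 of 8 members were lower (median -0.19). Usp18, which removes ISG15 and also shuts off the interferon receptor, went from 5800 to 4876 (-0.25). Herc6, the main mouse ISG15 ligase, went from 3083 to 2725 at its brightest probe set (-0.18), and its other 3 probe sets were at -0.41, -0.53 and -0.65. Dtx3l went from 2008 to 1706 (-0.24) and Parp9, its partner in a complex that modifies histones and viral proteins, from 2055 to 1791 (-0.20). Parp14, a related ADP-ribosyltransferase, was at 3656 and 3492 (-0.07).

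The TRIM ligases were split. Trim21, a receptor for antibody-coated virus inside the cell, went from 1200 to 990.0, 1.21-fold lower, and its dimmer probe set from 557 to 359 (-0.63). Trim25, which ubiquitinates RIG-I, was higher at its brightest probe set (2834 and 3075, 0.12) and lower at its other 2 (-0.07 and -0.26). Trim30a, an inhibitor of TLR signalling, was at 6619 and 6910 (0.06) at the brighter probe set and at -0.0039 at the other. A further probe set that names Trim30a together with Trim30d was left out.

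Genes of nuclear bodies and of the Ifi200 family went both ways, with 3 of 4 lower, from -0.19 to 0.15, and a median of -0.03. Sp100, a nuclear body component, went from 677 to 592 (-0.19), with 2 of 2 probe sets lower. Pml, the scaffold of these bodies, was at 461 and 447 (-0.04), with its other probe sets at 0.17 and -0.36. Daxx, a histone chaperone of the same bodies, was at 1418 and 1401 (-0.02). Ifi204, a DNA-binding member of the Ifi200 family, was higher in the knockout, at 2298 and 2550 (0.15), and its close paralogs could share its probe set.

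Of the remaining induced genes all 7 measured were lower, with a median of -0.14. Ifi27l2a, a small hydrophobic interferon-induced protein, had the lowest difference of the module, with signals of 4111 and 2999, 1.37-fold lower, from 1 probe set. Xaf1, an antagonist of the apoptosis inhibitor XIAP, went from 3106 to 2460, 1.26-fold lower, and its other, dim probe set from 105.1 to 69.8. Rtp4 was at 5793 and 5234 (-0.15), Ifi35 at 5607 and 5105 (-0.14, with 3 of 3 probe sets lower) and Tor3a at 2016 and 1867 (-0.11), where the other probe sets were at 0.03 and -0.33. Lgals3bp, a secreted glycoprotein, was at 6503 and 6279 (-0.05) and Nmi, a partner of Ifi35, at 1599 and 1581 (-0.02).

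Most members with several probe sets had all of them on the same side. Of the 19 members with several probe sets, 14 (73.7%) had all of them lower in the knockout, none had all higher and 5 were mixed, whereas 1137 of 5163 genes with several measured probe sets, and 22.7% of the 2490 in the brightest tercile, had all of them lower. Over single probe sets, 60 of 70 (85.7%) were lower, against 49.1% of 20607 measured probe sets. Disagreement in sign larger than the probe set SD was seen for Ddx58, Pml, Trim25 and Tor3a. Probe sets of 1 gene share the RNA of the same 2 cultures and are no replicates of the genotypes.

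Within a gene, the dimmer probe sets mostly showed the larger differences. In 15 of the 19 members (78.9%) the dimmest probe set was lower than the brightest, against 51.3% of all such genes and 54.0% in the brightest tercile. The median difference was -0.33 at the dimmest and -0.15 at the brightest probe set of these 19 members, where all such genes had 0.01 and 0.02. The 6 member probe sets that were at least 1.5-fold lower (8.57%, against 4.67% of all measured probe sets) belonged to Rsad2, Cmpk2, Dhx58, Herc6, Trim21 and Xaf1, and none of them was the brightest of its gene. None was 1.5-fold higher, against 4.77%. The size given above for a gene with several probe sets is that of its brightest. The dimmest lay further from 0 in 14 of the 19 (73.7%), against 57.9% of all such genes and 63.4% in the brightest tercile.

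**Figure D3:**
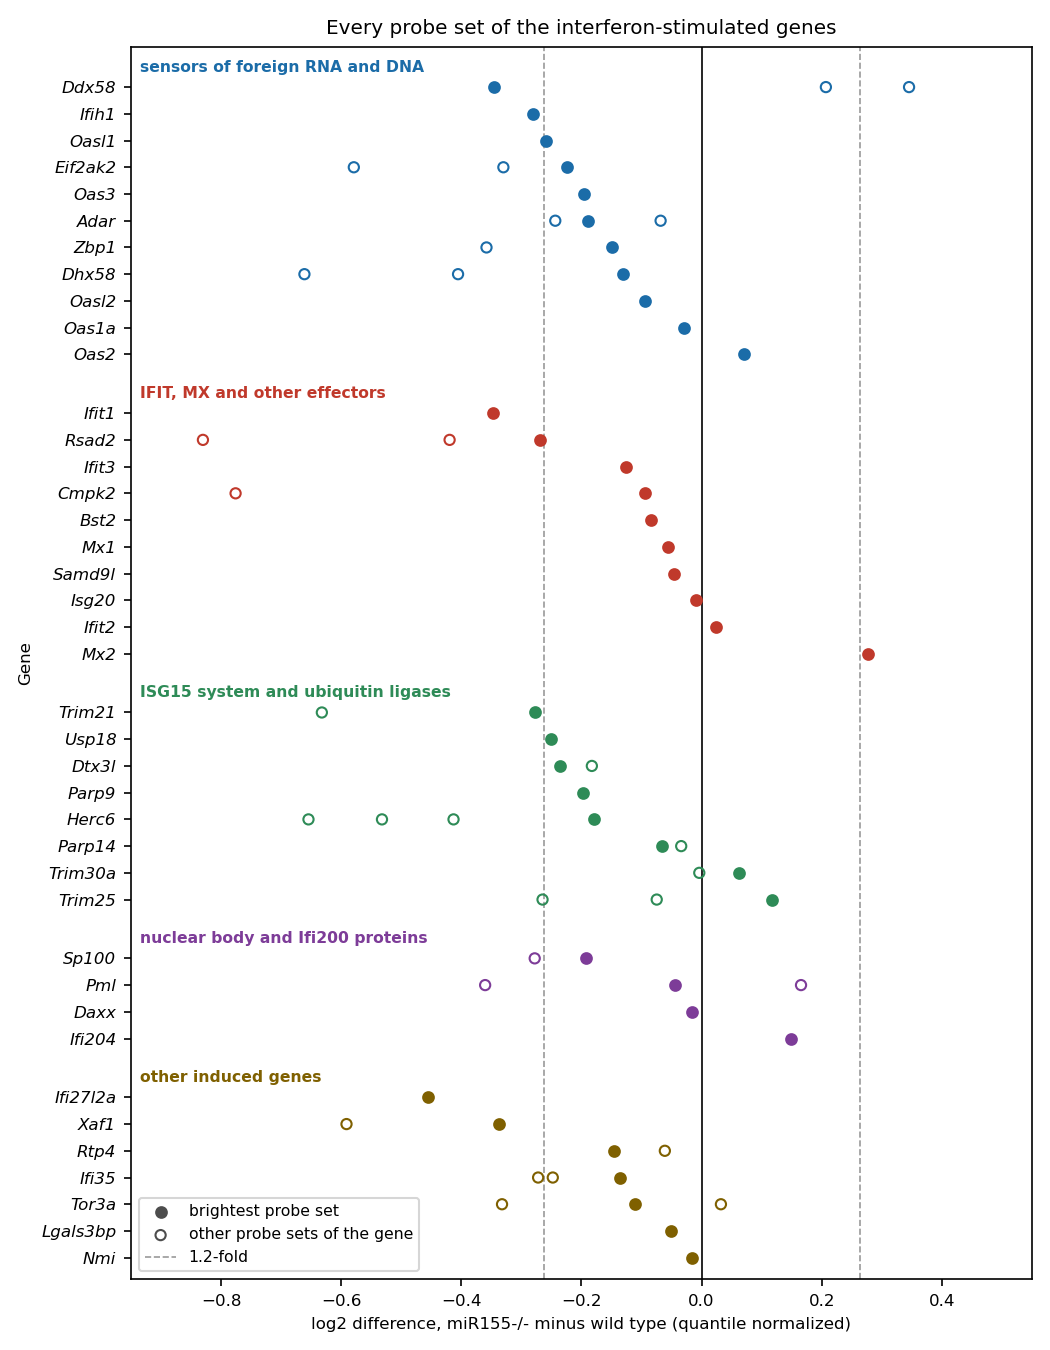
Difference between genotypes (log2, knockout minus wild type, quantile normalized) of all 70 probe sets of the 40 measured genes, with the brightest probe set of a gene filled, the others open and 1.2-fold marked by dashed lines. Of the 70 points 60 lie left of 0, and 1 open point each of Rsad2, Cmpk2, Dhx58, Herc6 and Trim21 lies beyond -0.6.

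Members with the response element core in their promoter window were compared with those without. The 11 measured members with it had a median difference of -0.22, ranging from -0.35 (Ifit1) to 0.06 (Trim30a), and 10 of them were lower. The 17 measured members with a window but no match had a median of -0.09, ranging from -0.34 (Xaf1) to 0.12 (Trim25), and 15 were lower. The ranges overlap, and the gap between the medians was not tested.

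The genes that lead to the module were mixed after quantile normalization. On the deposited values, the medians of interferon production, receptor signalling, signalling inhibitors and interferon-inducible GTPases were above 0, and that of the LPS-induced cytokines was below 0. Of the production side, 9 of 16 listed names (older synonyms included) were measured. Of these 5 were lower (against 48.5% of all measured genes), with a median of -0.03. Ifnb1, the ligand, was close to the floor at 81.1 and 84.9, too dim for its small difference to be read as no change, and Ifna1, Ifna2 and Ifna4 lay below the floor on both arrays. Irf3, which turns on Ifnb1, went from 699.7 to 532 (-0.39, with 3 of 3 probe sets lower), and Ikbke, a kinase that acts on it, from 1905 to 1576 (-0.27). Tbk1, the main such kinase, was higher (2976 and 3443, 0.21), as was Mavs, the adaptor of the RNA helicases (480 and 701, 0.55), each with 2 of 2 probe sets higher. Irf7, itself an interferon-stimulated gene that amplifies the response, was at 6381 and 5691 (-0.17).

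On the receptor side, 4 of 6 measured genes were lower (median -0.10), against 48.5% of all measured genes. Stat2 went from 1207 to 898, 1.34-fold lower, with 2 of 2 probe sets lower. Ifnar1, a receptor chain, went from 1054 to 1391 at its brightest probe set (0.40), but its other probe set was lower. Ifnar2 (-0.11), Tyk2 (-0.13) and Jak1 (-0.09) were slightly lower at every probe set, and Irf9 was at 1134 and 1139 (0.01). Of 5 inhibitors of the pathway 3 were lower (against the same 48.5%), led by Socs1, which blocks JAK kinases, at 671 and 511 (-0.39). Pias1 was at -0.28 at its brightest probe set, but only 1 of its 4 probe sets was lower. Socs3 was at -0.11, Ptpn6 at 0.05 and Ptpn2 at 0.07.

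Beside the interferon-inducible GTPases (GBP and IRG proteins, which attack pathogen vacuoles and answer to interferon gamma as well) and the LPS-induced cytokines, the antiviral module lay in between. Of 10 measured GTPase genes 5 were lower, from -0.17 (Ifi47) to 0.07 (Irgm2), with a median of -0.0019. All 10 measured cytokine genes were lower (against 48.5% of all measured genes), with a median of -0.60. At least 1.2-fold lower were 8 (against 18.1%), among them Il23a, which was at the floor in the knockout. On the deposited values 5 of the 10 were lower, against 7.14% of all measured genes. Il12b had signals of 5331 and 2212, and Il6 had 6155 and 2634. The order of the 3 medians was the same in all 5 scalings, with cytokines lowest and GTPases highest. Among the scalings that move each array by 1 constant, this order could hardly change. With 1 array per genotype, the gaps between the groups were not tested.

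**Figure D4:**
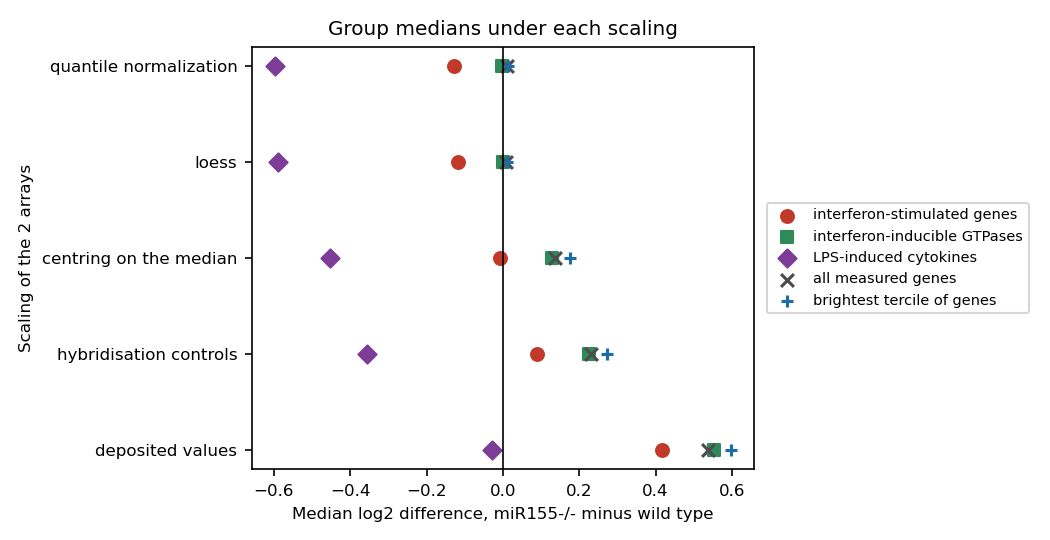
Median difference between genotypes (log2, knockout minus wild type) of 3 gene groups, of all measured genes and of the brightest tercile, under 5 scalings of the arrays. The interferon-stimulated genes run from -0.13 with quantile normalization to 0.42 on the deposited values and lie under all measured genes in every row.

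Markers of cells that such cultures may hold were read after quantile normalization only, and their directions under the other scalings are not given here. The median of all measured genes was 0.01 after quantile normalization and 0.54 on the deposited values, so smaller marker differences can change direction with the scaling. In bulk RNA, fewer cells of a type and less RNA per cell cannot be told apart. All 12 listed dendritic cell markers were measured, with Flt3 at the floor in wild type. Of these 8 were lower and 4 higher (median -0.09), with 4 past 1.2-fold each way: Irf8 was 1.58-fold and Ccr7 1.46-fold lower, and Naaa 1.79-fold and Itgax 1.24-fold higher, and the list had summed signals of 42595 (wild type) and 38947 (knockout). Of 10 listed macrophage markers 8 were measured, 5 of them higher (median 0.20), with sums of 35501 and 35853. Mrc1 was 2.08-fold and Mertk 1.75-fold higher, and Cd14 was 1.35-fold lower. Plasmacytoid dendritic cells are strong interferon producers, and 7 of their 10 listed markers were measured. All 7 were lower in the knockout (against 48.5% of all measured genes), with sums of 6164 and 5486 that rest mostly on the member Bst2. Klk1 had the largest difference, with signals of 288 and 132. Spib was at the floor in the knockout and Ly6d barely above it, and Siglech and Ccr9 were below it on both arrays. Of 9 listed B and plasma cell names 5 were measured, and all 5 were lower (against the same 48.5%). Their sums were 1621 and 437.7, with Mzb1, Ms4a1 and Cd79b at the floor in the knockout. The part of these differences in the values of the module was not tested.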

How the data were processed

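The authors deposited 1 value per probe set and array, a linear signal intensity judging by its range. The sources used here do not give the algorithm, detection calls, scaling or scan. The 64 control probe sets were left out, log2 intensities of the other 45037 were quantile normalized (array medians differed by over 10%), and values under the median of all values were set to it (the floor). Probe sets were named by the supplied platform annotation, symbols updated by gene identifier to GRCm38.p6: 34945 name 1 gene, 932 several and 9160 are unnamed here. Of a gene's probe sets, the one with the highest mean of both arrays was used. Genes were counted by fixed folds (1.2, 1.5 and 2), with no test; the number of arrays limits the precision. The members, lists and folds were chosen with earlier results of these data known. All members are described, those past 1.2-fold, at the ends of their role group or with discordant probe sets in full. Terciles and deciles are of mean signal; deciles were added after seeing the data. Steps ran in Python 3.11.15 with pandas 2.3.3 and statsmodels 0.14.6. Quantile normalization, loess and centring were tested on simulated data with 1 overall factor between the arrays. That test cannot show which scaling is right for these arrays. The 8 alternatives were 4 scalings, 2 floors and 2 probe set choices.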

Additional observations from a re-analysis of the deposited data

How the results depend on the processing

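With loess, no floor, a floor at the 75th percentile, averaged probe sets or no _x_at and _s_at probe sets, the interferon-stimulated genes kept a median difference between -0.12 and -0.13, with 33 or 34 of 40 lower and 6 to 10 at least 1.2-fold lower; under all 8 alternatives none passed 2-fold. The other 3 scalings move each array by 1 constant, where quantile normalization and loess change genes by signal level. The median difference of the interferon-stimulated genes was near 0 with centring and above 0 with the other 2. With centring on the median, it was -0.0067, 21 genes were lower, 2 at least 1.2-fold lower and 2 at least 1.2-fold higher. With scaling on hybridisation controls the median was 0.090, 9 were lower, 0 at least 1.2-fold lower and 4 higher. On the deposited values the median was 0.42, 0 were lower, 0 at least 1.2-fold lower and 35 higher. In that order of settings, the median of type I interferon production was 0.099, 0.20 and 0.52, of receptor signalling 0.076, 0.17 and 0.50, of interferon-inducible GTPases 0.13, 0.23 and 0.55, and of LPS-induced cytokines -0.45, -0.35 and -0.028. The median of interferon signalling inhibitors was 0.017 with hybridisation controls, 0.34 on the deposited values, 0.0082 with averaged probe sets and -0.27 without _x_at and _s_at probe sets, and that of receptor signalling -0.20 with averaged probe sets; the causes were not tested. The GTPase median, near 0, was 0.0013 with loess. No paired analysis was possible because each genotype is 1 array.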
